A study of Homo sapiens with 4 samples.

Results

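The prostate kallikreins KLK3, KLK2, KLK4 and KLK15 are 4 of the 19801 genes measured by RNA-seq in LNCaP, a human line of prostate cancer cells that respond to androgen. They were chosen as the genes of the kallikrein locus on chromosome 19 that are known for expression in prostate, and were found by Entrez Gene identifier (KLK3 354, KLK2 3817, KLK4 9622 and KLK15 55554). Cells received an empty vector or the plasmid the labels call AR1-651 for 24 h, and were left untreated or given ailanthone (AIL) for the following 12 h. Each of the 4 conditions had 1 library, here called by its vector and, where it was given, AIL. Differences between conditions therefore have no replicate error, and neither a p-value nor a spread is given. All cells were grown with 10% serum in the same medium.

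Kallikreins are secreted serine proteases that are made as inactive precursors and cut one another, or are cut by other proteases, to become active. Their genes lie side by side. KLK3 encodes prostate-specific antigen (PSA), a chymotrypsin-like enzyme that liquefies semen and serves as the blood marker of prostate cancer. KLK2 encodes its close relative hK2, a trypsin-like enzyme that can activate the PSA precursor. KLK4 encodes prostase, a trypsin-like enzyme of prostate and of developing enamel, and KLK15 encodes a less abundant kallikrein that can also activate the PSA precursor. KLK3 and KLK2 are textbook androgen-induced genes, with a palindrome called the androgen response element in their upstream sequence.

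The sequence just before the start of the genes with the highest changes is shown because the androgen response element is known from there. RefSeq windows (250 bases before to 50 after each start, GRCh38.p14) were searched on both strands for the arm AGAACA and its reverse complement TGTTCT spaced by 3 bases of any kind, and mismatches were counted over the 12 fixed letters. The 250 bases before the start of KLK3 (chr19:50854665-50854914, plus strand) and of KLK2 (chr19:50873189-50873438, plus strand) follow 5′ to 3′, with the closest match to the palindrome in capitals.
KLK3: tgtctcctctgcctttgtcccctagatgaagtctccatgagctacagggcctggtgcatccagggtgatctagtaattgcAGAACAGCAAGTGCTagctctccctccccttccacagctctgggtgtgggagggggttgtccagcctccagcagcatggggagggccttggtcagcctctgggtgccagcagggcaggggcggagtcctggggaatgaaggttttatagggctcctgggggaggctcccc
KLK2: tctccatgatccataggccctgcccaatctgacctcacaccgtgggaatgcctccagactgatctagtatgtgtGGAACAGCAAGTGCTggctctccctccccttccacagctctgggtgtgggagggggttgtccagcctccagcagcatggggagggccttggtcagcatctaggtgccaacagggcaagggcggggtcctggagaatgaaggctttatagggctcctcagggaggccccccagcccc
The KLK3 match began 170 bases before the start and had 2 mismatches. It held the arm AGAACA whole. The KLK2 match began 176 bases before the start and had 3 mismatches, and differed from that of KLK3 by A1G, counted from the 5′ end of the match. Of all 35114 RefSeq windows of this length, 10.8% held a match with at most 3 mismatches, 1.41% with at most 2, and 14.8% held the arm AGAACA or TGTTCT. The closest match in each of the 2 windows of KLK15 had 5 mismatches, and those of the 2 windows of KLK4 had 5 and 6. None of the 16 windows of 9 other kallikrein genes of the locus had 3 or fewer. A match of letters is a description and no evidence of binding.

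The upstream stretches of KLK3 and KLK2 were identical at 205 of 259 aligned columns (79.2%) and shared a run of 80 bases, which lies just after the match. The other pairs of these genes were identical at 47.3% to 49.6% of columns. The transcripts of KLK3 and KLK2 were compared by exact runs of bases, which is another measure than the columns above. The lengths of these runs are not known read lengths. Of 1939 runs of 36 bases in the KLK3 transcripts, 38 (1.96%) also occurred in KLK2, which is 1.22% of the runs of KLK2, and no run of this length was shared by any other pair. For runs of 50 bases, 11 of 1953 (0.563%) in KLK3 also occurred in KLK2. By these exact runs, reads could be split between KLK3 and KLK2 over a small part of either gene. Reads aligned with mismatches were not considered.

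In GENCODE release 29 (GRCh38), KLK15 lies at chr19:50825289-50837213 on the minus strand, KLK3 at chr19:50854915-50860764 and KLK2 at chr19:50861568-50880567 on the plus strand, and KLK4 at chr19:50906352-50910738 on the minus strand. The RefSeq start of KLK2 used above lies inside the longer GENCODE span. An uncharacterised RefSeq locus, LOC105372441, overlaps KLK15 and was not analysed here. Whether the reads were counted by strand is not given in the sources used here, so reads of both cannot be told apart.

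The deposited values were RPKM (a read count divided by the length of the exons and by the library's mapped reads), which allows levels of different genes to be compared. Values of short genes fell on steps that put the libraries at about 4900000 to 5810000 reads, and 82.9% to 84.3% of the values looked at were whole reads within 0.05 of a read. From these steps and the GENCODE transcript lengths, approximate reads were derived. The 95% Poisson intervals below use the shortest transcript and cover counting error only.
The sum of RPKM was highest with AR1-651 (646882) and lowest with empty vector (502594), and the median RPKM ran from 3.12 with AR1-651 to 4.68 with empty vector. All 6 luminal prostate markers were measured above 1 RPKM, and their sum was 2181 RPKM with AR1-651 and 1295 to 1351 in the other libraries. The markers did not all move alike between empty vector and AR1-651. HOXB13 alone was lower with AR1-651, at 236 and 141 RPKM. The others were higher by log2 changes from 0.36 (FOLH1, 656 to 840 RPKM) to 2.87 (TMPRSS2, 36.7 to 276 RPKM). The part of these markers in the results below was not tested. The basal marker KRT14 did not exceed 0.21 RPKM and the leukocyte marker PTPRC 0.94. Of the stromal markers, COL1A1 lay between 1.75 and 4.59 RPKM and COL1A2 did not exceed 0.46.

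Directions with AR1-651 below are those of the libraries labelled so.

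KLK3, the PSA gene, was the most abundant of these genes in every library. It stood at 287 RPKM with empty vector (interval 272 to 302), 303 with empty vector + AIL (287 to 319), 1442 with AR1-651 (1410 to 1475) and 582 with AR1-651 + AIL (561 to 602). It ranked 195th of all genes with empty vector and 64th with AR1-651. The libraries without AR1-651 were the low ones and lay close together, and AR1-651 + AIL lay between them and AR1-651. In bulk samples like these, less RNA per cell and fewer expressing cells cannot be told apart.
KLK2 was low with empty vector and had the widest range as a fold. Its values were 14.3 RPKM with empty vector (12.4 to 16.5), 11.6 with empty vector + AIL (9.75 to 13.5), 198 with AR1-651 (190 to 205) and 45.4 with AR1-651 + AIL (42.1 to 48.9). In rank it moved from 5588th of all genes with empty vector to 455th with AR1-651.
KLK4 followed another order. It was at 101 RPKM with empty vector (93.2 to 108), 41.4 with empty vector + AIL (36.6 to 46.7), 136 with AR1-651 (128 to 145) and 46.0 with AR1-651 + AIL (41.3 to 51.0). Here both libraries with AIL were low, and their intervals overlapped.
KLK15 was the least abundant, at 5.22 RPKM with empty vector (3.14 to 8.37), 5.20 with empty vector + AIL (3.08 to 8.47), 11.5 with AR1-651 (8.20 to 15.4) and 9.36 with AR1-651 + AIL (6.61 to 13.1). These values rest on about 17 to 42 reads at the shortest transcript length, and all of their intervals overlapped.

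**Figure D1:**
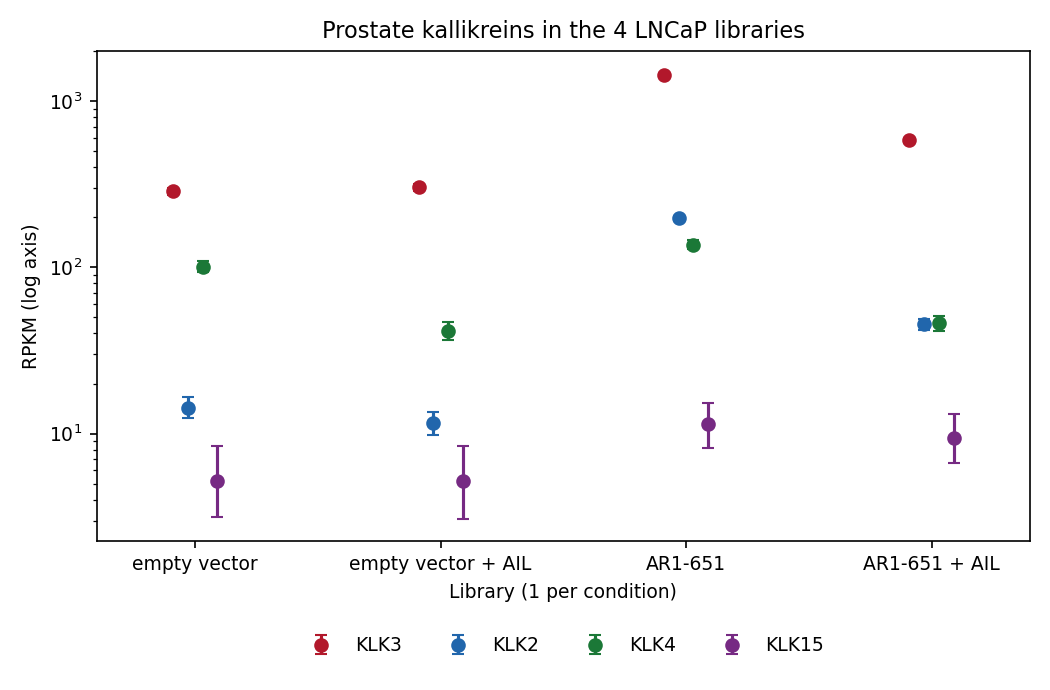
RPKM (log axis) of KLK3, KLK2, KLK4 and KLK15 in the 4 libraries, 1 per condition, with 95% Poisson counting intervals as bars (small ones lie within the points). KLK3 and KLK2 are highest with AR1-651 at 1442 and 198 RPKM, while KLK4 is at 41.4 and 46.0 RPKM in the 2 libraries with AIL.

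The order of the levels changed between libraries. KLK4 was above KLK2 with empty vector and with empty vector + AIL, by ratios of 7.02 and 3.58. With AR1-651 the order turned and KLK2 was 1.45 times KLK4, and with AR1-651 + AIL they differed by less than counting error (45.4 and 46.0 RPKM). KLK3 and KLK2, the closest relatives, did not keep a fixed ratio. With empty vector KLK3 was 20.001 times KLK2, and 26.2 times after AIL. With AR1-651 it was 7.30 times KLK2, and 12.8 times after AIL. A ratio within a library does not depend on the scaling between libraries. Of the RPKM summed over all kallikreins of the locus, KLK2 held 3.46% with empty vector and 10.997% with AR1-651, and KLK4 held 24.3% and 7.59%. KLK3 held 69.3% and 80.3% of it, and KLK15 1.26% and 0.639%.

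A change is the difference of log2(RPKM + 1) between 2 libraries, taken for the 14626 genes that reached 1 RPKM in any library. All 4 genes passed this filter. A gene is called higher or lower from 2-fold on this scale, which understates the change of genes with low values. AR1-651 was compared with empty vector first. KLK3, KLK2 and KLK15 were at least 2-fold higher and KLK4 was not, that is 3 of 4, against 4.01% of all genes tested. None was at least 2-fold lower, against 11.6%.
KLK2 was 13.8-fold higher in RPKM (counting interval 11.9 to 16.0), a log2 change of 3.69, and had the 7th highest change of all genes tested. KLK3 was 5.03-fold higher (4.75 to 5.33), a log2 change of 2.33 and the 55th highest. The counting intervals of these folds do not overlap. KLK15 lay at the threshold, 2.20-fold higher (1.21 to 3.96) with a log2 change of 1.00.
KLK4 was 1.36-fold higher (1.23 to 1.497), a log2 change of 0.43. The median over the 4 was 1.67, against -0.30 over all genes tested. Relative to that median, the log2 changes were 3.995 for KLK2, 2.63 for KLK3, 1.31 for KLK15 and 0.74 for KLK4. Scaling each library to the same RPKM sum put the median of all genes at -0.59, and median-ratio scaling put it at -0.08. KLK15 was then at 0.68 and 1.25, on either side of 2-fold, and KLK4 at 0.07 and 0.70. KLK3 (1.96 and 2.59) and KLK2 (3.34 and 3.96) stayed above 2-fold in both.

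AIL in cells with the empty vector asks how the genes stood with the drug alone. KLK4 was the only one of the 4 genes past 2-fold, and it was lower. That is 1 of 4, against 9.03% of all genes tested, and none was higher, against 9.53%. KLK4 was at 0.411 of its level with empty vector (0.356 to 0.475), a log2 change of -1.26. KLK3 was at 1.06 times (0.979 to 1.14) with a log2 change of 0.08, and equal RPKM sums turned its sign (-0.01). KLK2 was at 0.806 times (0.645 to 0.999), a log2 change of -0.29. KLK15 was at 0.996 times (0.483 to 2.05), so a change of up to 2-fold in either direction was not detectable at this depth.

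AIL in cells with AR1-651 was the comparison in which KLK3, KLK2 and KLK4 were all at least 2-fold lower. That is 3 of 4, against 5.74% of all genes tested. None was at least 2-fold higher, against 14.9%. KLK2 was at 0.230 of its level with AR1-651 (0.211 to 0.250), a log2 change of -2.10 and the 100th lowest of all genes. KLK4 was at 0.337 (0.297 to 0.381; log2 change -1.55) and KLK3 at 0.403 (0.387 to 0.420; log2 change -1.31). KLK15 was at 0.815 (0.517 to 1.33), which is within counting error of no difference. The median of the 4 log2 changes was -1.43, and that of all genes tested was 0.13.
The log2 change with AIL in the AR1-651 libraries minus that in the empty vector libraries was -1.81 for KLK2, -1.39 for KLK3, -0.29 for KLK4 and -0.26 for KLK15. The median of this difference over all genes tested was 0.14. KLK4 thus had like falls in both, whereas KLK2 and KLK3 were lower past 2-fold with AIL in the AR1-651 libraries and not in the empty vector libraries. These differences were not tested.

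**Figure D2:**
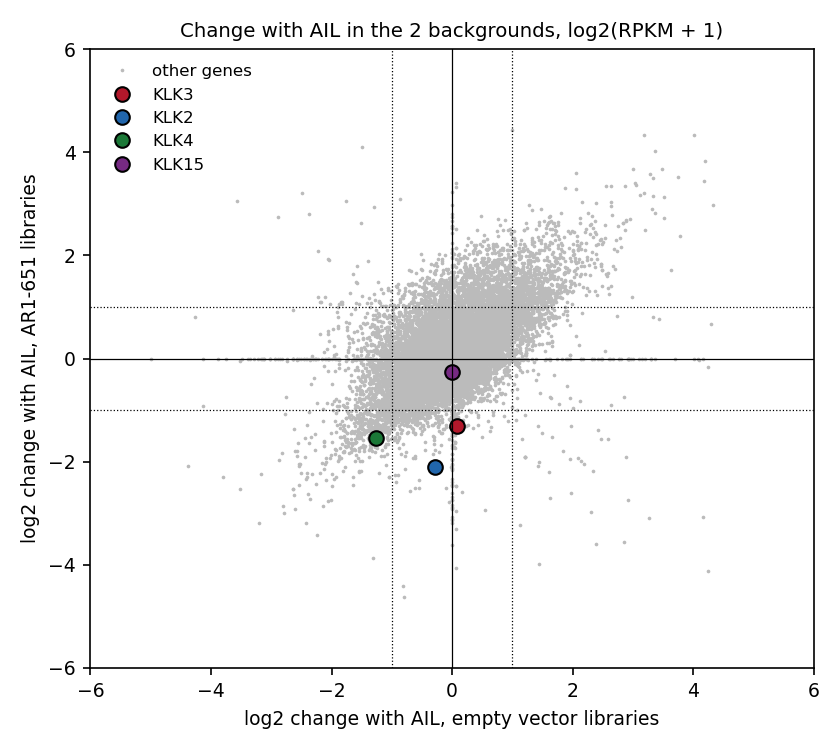
Log2 change with AIL in the empty vector libraries (x axis) and in the AR1-651 libraries (y axis) for all genes tested (grey) and the 4 kallikreins, on the log2(RPKM + 1) scale, with dotted lines at 2-fold. KLK3 (0.08 and -1.31) and KLK2 (-0.29 and -2.10) lie near zero on x and low on y, and KLK4 (-1.26 and -1.55) is low on both.

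When both libraries had AIL, the differences between AR1-651 and empty vector were smaller than without it in all 4 genes. For KLK4 and KLK15 the counting intervals of the folds with and without AIL overlapped. KLK15 had log2 changes of 0.67 with AIL and 0.68 without it at equal RPKM sums. With the trend in length and GC content removed it had 1.04 with AIL against 1.01. KLK2 was 3.93-fold higher than with empty vector + AIL (3.30 to 4.73), a log2 change of 1.89. It was past 2-fold, 1 of 4 against 1.46% of all genes, and none was at least 2-fold lower, against 3.53%. With the trend removed KLK3 (1.09) and KLK15 (1.04) passed 2-fold as well. KLK3 was 1.92-fold higher (1.80 to 2.05; log2 change 0.94) and KLK15 1.80-fold (0.977 to 3.39; log2 change 0.74). KLK4 was 1.11-fold higher (0.943 to 1.31; log2 change 0.15), within counting error of no difference.
In RPKM, the excess with AR1-651 was 1156 without AIL and 279 with AIL for KLK3, so 24.1% of it was seen with AIL. For KLK2 it was 183 and 33.8 (18.5%). For KLK4 it was 35.8 and 4.58 (12.8%), and for KLK15 6.26 and 4.16 (66.5%). The shares of KLK4 and KLK15 are only loosely set and do not rank the genes. For KLK4 the excess with AIL was within counting error of none. With equal RPKM sums its log2 change with AR1-651 was 0.07 both without and with AIL. For KLK15 the values rest on about 17 to 42 reads per library.

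**Figure D3:**
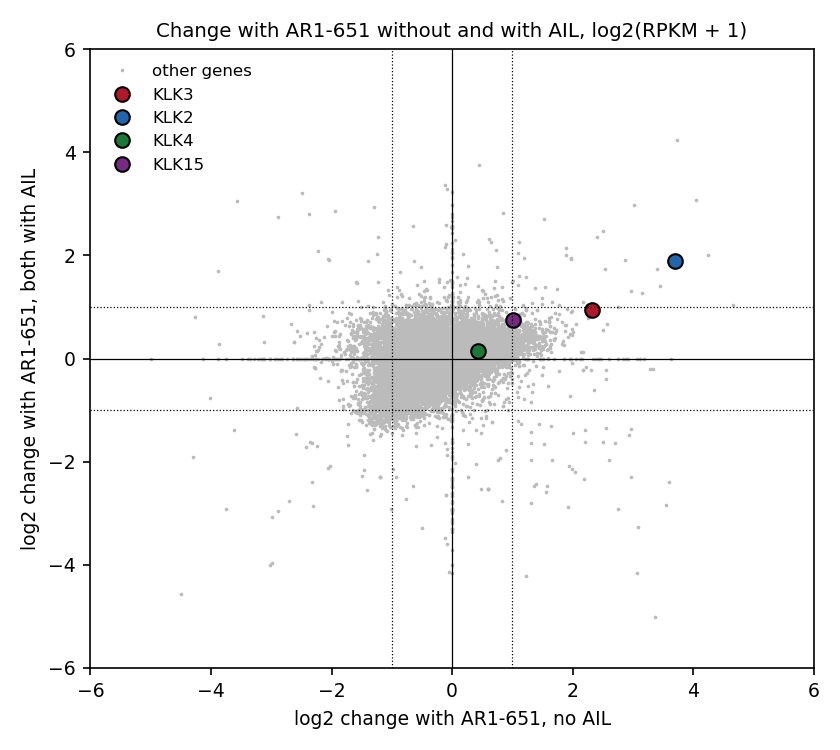
Log2 change with AR1-651 without AIL (x axis) and with AIL in both libraries (y axis) for all genes tested (grey) and the 4 kallikreins, on the log2(RPKM + 1) scale, with dotted lines at 2-fold. KLK2 (3.69 and 1.89) is past 2-fold on both axes, and KLK3 (2.33 and 0.94) on x alone.

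AR1-651 + AIL was also set beside empty vector, from which it differs in both factors. KLK2 was 3.17-fold (log2 change 1.60) and KLK3 2.03-fold higher (log2 change 1.02), 2 of 4, against 12.6% of all genes tested. KLK3 fell short of 2-fold with equal RPKM sums (0.85). KLK4 was at 0.457 of its level (log2 change -1.11), 1 of 4, against 15.8% at least 2-fold lower, and fell short of 2-fold with the trend in length and GC content removed (-0.82). KLK15 had a log2 change of 0.74. The 5 comparisons share libraries with one another, so their values are not independent.

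The other kallikreins of the locus did not exceed 4.96 RPKM. Of 12 such genes, 7 were measured and 4 reached 1 RPKM in at least 1 library. KLKP1, a pseudogene that lies between KLK2 and KLK4, was at 1.74 RPKM with empty vector and 0.73 after AIL, from about 10 and 4 reads. With AR1-651 it was at 4.96, and at 2.02 after AIL, from about 30 and 13 reads. It was highest in the same library as its neighbour KLK2, with a log2 change of 1.12 with AR1-651. KLK7 ran from 1.03 to 2.49 RPKM and was lowest in both libraries with AIL, a difference of a few reads. It had about 13 and 5 reads with empty vector without and with AIL, and 13 and 7 with AR1-651. The other kallikreins KLK1 and KLK14 rested on 7 reads or fewer per library.
Of the 10 genes on each side of the locus, 8 were measured and 6 passed the filter. C19orf48P was lowest with empty vector (117 RPKM, 188 after AIL) and highest with AR1-651 and AIL (246 RPKM, 202 without AIL). CTU1, a tRNA-modifying enzyme on the other side, was at 14.6 RPKM with empty vector and past 2-fold higher after AIL (34.8), and at 13.6 and 24.0 with AR1-651 without and with AIL. Neither was lower with AIL, as KLK3 and KLK2 were with AR1-651. ACP4 did not pass 1.63 RPKM, and the 3 small nucleolar RNAs SNORD88A, SNORD88B and SNORD88C had 4 reads or fewer per library.

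**Figure D4:**
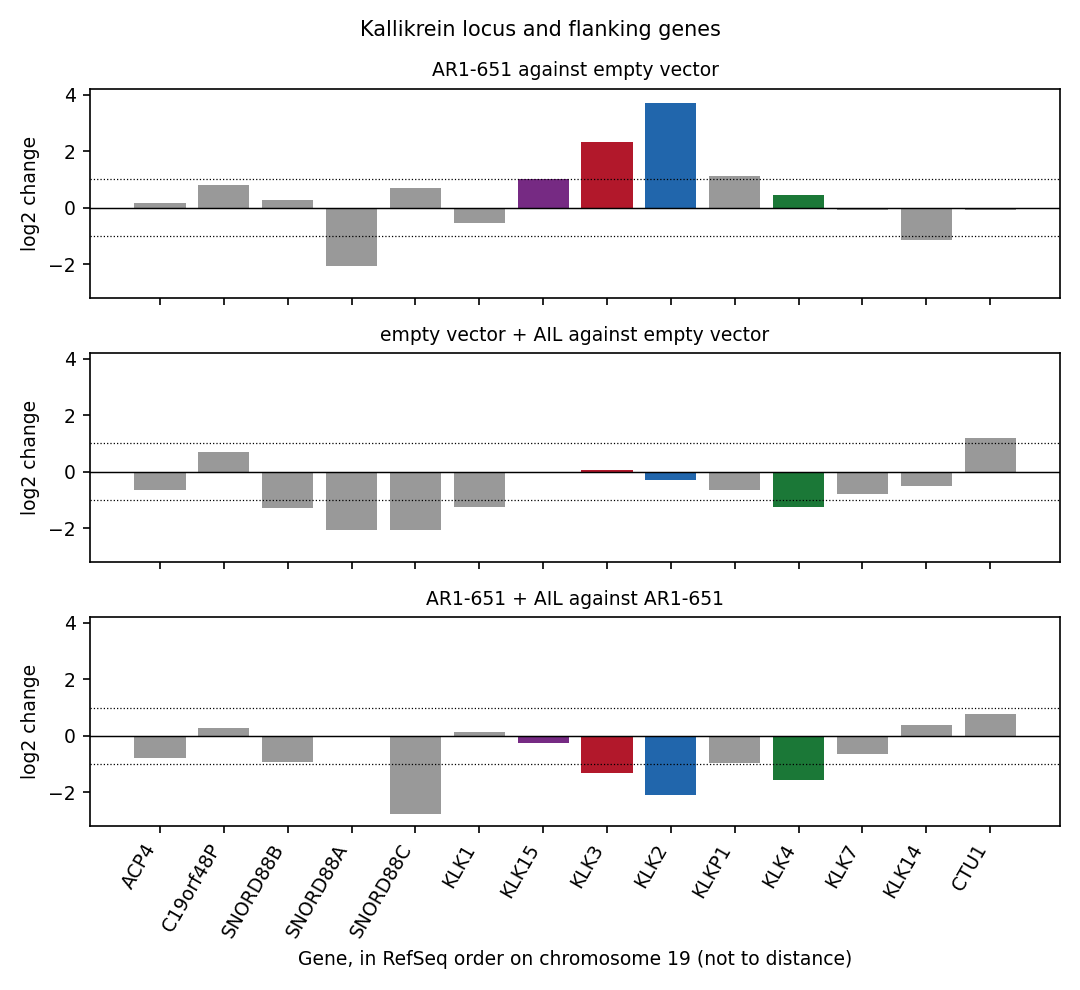
Log2 change on the log2(RPKM + 1) scale for the kallikreins (coloured: KLK15, KLK3, KLK2 and KLK4) and the other tested genes of the locus and its flanks (grey), in order along chromosome 19 and not to distance, in 3 comparisons. With AR1-651, bars of KLK15, KLK3, KLK2 and KLKP1 exceed 2-fold upwards and those of SNORD88A and KLK14 downwards. KLK15 (about 18 reads with empty vector), KLK7 (about 13), KLKP1 (about 10), ACP4 (about 9), SNORD88A, SNORD88B, SNORD88C, KLK1 and KLK14 rest on few reads.

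A list of inhibitors and activators of kallikreins was set beside the 4 genes. Of 11 listed genes, 8 were measured and 4 passed the filter. The inhibitors SERPINA3 and A2M did not exceed 0.11 and 0.04 RPKM, and SERPINA5, SERPINA4 and PZP were not measured. Those that passed are membrane proteases and inhibitors of such proteases, and their action on kallikreins was not tested. TMPRSS2, a membrane protease whose gene androgen induces, had 36.7 and 16.6 RPKM with empty vector without and with AIL. With AR1-651 without and with AIL it had 276 and 65.1, and all values that follow are in this order. It alone was at least 2-fold higher with AR1-651, 1 of 4 against 4.01% of all genes. SPINT1, an inhibitor of membrane serine proteases, had 95.6, 38.0, 39.7 and 16.6 RPKM. It alone was at least 2-fold lower with AR1-651, 1 of 4 against 11.6% of all genes, though not with median-ratio scaling. With AIL, 3 of the 4 were lower with empty vector, against 9.03% of all genes, and all 4 with AR1-651, against 5.74%. They include HPN (hepsin, a membrane protease) at 111, 42.0, 82.0 and 28.9 RPKM, and SPINT2, a second such inhibitor, at 398, 255, 475 and 211, which with equal RPKM sums was not past 2-fold.
Of 11 substrates and semen proteins, 10 were measured and 6 passed the filter. With AR1-651, 1 was at least 2-fold higher (MSMB, at 1.52 RPKM and listed at 0 with empty vector) and 1 lower (FN1, fibronectin, at 37.4 and 15.1 RPKM), against 4.01% and 11.6% of all genes, so 1 of 6 lower is near the share of all genes. MSMB passed the filter only through the AR1-651 library, on about 3 reads. Its calls, higher with AR1-651 and lower with AIL there, are therefore no support for a change. FN1 was also lower with AIL, at 11.1 and 6.55 RPKM. In the empty vector libraries that is 1 of 6 lower with AIL, against 9.03% of all genes and so near that share. PTHLH was lower there too with equal RPKM sums. With AIL in the AR1-651 libraries 3 of the 6 were lower, MSMB, FN1 and F2RL1, against 5.74% of all genes. MSMB enters this count only through that same selection. With median-ratio scaling PTHLH was lower too, and with equal RPKM sums MSMB alone. F2RL1, a receptor that trypsin-like proteases cleave, had 9.27, 5.24, 16.3 and 7.53 RPKM. ACP3, prostatic acid phosphatase and an abundant semen protein, went from 53.5 with empty vector to 29.6 RPKM with AR1-651, a log2 change of -0.83 that passed 2-fold with equal RPKM sums.
Of 12 transcription factors and coregulators active in prostate cells, all were measured above 1 RPKM. None was at least 2-fold higher with AR1-651 and 4 were lower: the pioneer factor GATA2 (130 to 42.9 RPKM) and the coregulators NCOA2, EP300 and CREBBP, against 4.01% of all genes higher and 11.6% lower. With median-ratio scaling 3 were lower, against 5.59% of all genes, and with equal RPKM sums 10, against 24.9%. Values below 0 were common among all genes too: 11 of the 12 as deposited, against 67.0% of all genes. FOXA1, a pioneer factor that opens chromatin, was at 162, 139, 82.3 and 86.1 RPKM, and HOXB13, a prostate homeobox factor, at 236, 173, 141 and 97.2 RPKM. With AIL none of the 12 was at least 2-fold lower, against 9.03% of all genes with empty vector and 5.74% with AR1-651. A count of none in 12 is near these shares. NCOA2, NCOA3 and PIAS1 were at least 2-fold higher with AIL in cells with AR1-651, 3 of 12 against 14.9% of all genes. With median-ratio scaling NCOA2 was not, which left 2 of 12 against 10.8%. With equal RPKM sums EP300 and CREBBP were higher too, which made 5 of 12 against 18.97%. Changes with AR1-651 also moved with transcript length, with a median of -0.03 in shorter genes and -0.51 in longer ones. This list was not counted with the trend in length and GC content removed. Over all genes, removing it took those lower with AR1-651 from 1701 to 530. Those higher with AIL in the AR1-651 libraries went from 2184 to 1161.

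The genes with the most similar pattern were sought among 10680 genes with a symbol and at least 5 RPKM in at least 1 library, by the Euclidean distance of their log2(RPKM + 1) values over the 4 libraries, each centred on its mean. Nearest to KLK2 were SNORD107 (distance 0.42), MIR7-1 (0.43), TMPRSS2 (0.70), ST6GALNAC1 (0.73) and FKBP5 (0.77), and KLK3 came 11th (1.31). SNORD107 and MIR7-1 are short RNAs listed at 0 in both libraries without AR1-651, and with it they rest on about 2 and 4 reads. ST6GALNAC1 had about 9, 1, 188 and 22 reads. SNORD107, MIR7-1 and ST6GALNAC1 reached 5 RPKM only in the AR1-651 library, so their likeness to KLK2 is partly set by that filter. FKBP5, a cochaperone whose gene androgen induces, was at 7.04, 7.29, 62.2 and 19.5 RPKM. Nearest to KLK3 were SNORD22 (0.12), DBI (0.28), GPC5-AS1 (0.39), SELENOK (0.40) and MPC2 (0.42), with KLK2 in place 456. The SNORD22 pattern rests on about 1, 1, 7 and 3 reads, and GPC5-AS1 on 11 or fewer per library. GPC5-AS1 also reached 5 RPKM only in the AR1-651 library. DBI, which encodes acyl-CoA binding protein, stood at 102, 103, 427 and 165 RPKM.
KLK4 lay nearest to DDIT4 (0.026), RFX5 (0.066), LINC00987 (0.070), MTA1-DT (0.077) and PTMA (0.090). DDIT4, an inhibitor of the growth kinase complex mTORC1, was at 90.6, 37.2, 120 and 41.3 RPKM. KLK15 was nearest to CFAP36 (0.12), B2M (0.12), SMIM30 (0.14), MGST2 (0.15) and DERL2 (0.15), and B2M, the light chain of class I histocompatibility molecules, was at 153, 148, 293 and 228 RPKM. With 4 points per gene, such a likeness is a description of these libraries.
Transcript length moved with the change with AR1-651. Its median was -0.03 on the log2 scale in the 7001 genes shorter than the median length and -0.51 in the 7004 others. Median GENCODE transcript lengths were 783 nt for KLK15, 1347 nt for KLK4, 1463 nt for KLK3 and 2840.5 nt for KLK2, against 2550 nt for all genes tested. The 5 nearest genes had 126 to 1633 nt for KLK3, 75 to 3883.5 nt for KLK2, 1216.5 to 3576 nt for KLK4 and 801 to 2399 nt for KLK15. With the trend in length and GC content removed, the log2 change with AR1-651 was 2.33 for KLK3, 3.92 for KLK2, 0.55 for KLK4 and 1.01 for KLK15, so it was about as large or larger without the trend for all 4 genes.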

How the data were processed

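LNCaP RNA was sequenced by the authors as 1 library per condition on the HiSeq2000 with a stranded kit, and the labels name both ribosomal RNA removal and oligo(dT) selection. The submitters' processing notes list BWA 0.7.10-r789 and hg19. The counting tool and annotation are not given in the sources used here. The authors deposited RPKM values per Entrez gene, rounded to 2 decimals. RPKM is relative: reads taken up by a few abundant genes lower the values of all others in that library.

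Conditions came from the labels. Differences of log2(RPKM + 1) were computed for genes that reached an RPKM of 1 in any library, and 2-fold was the threshold. The value of 1 read was found from genes of at most 200 bp with fewer than 20 reads, as a step of RPKM times length less 36 bp, a form chosen after seeing the data. Reads of a gene are approximate, since its counted length is not known. Named genes are the 4 kallikreins, locus and flanking genes, lists of kallikrein regulators, substrates and prostate transcription factors and coregulators, and the 5 nearest patterns. These genes and lists were chosen with earlier results of these data known. Some listed genes are not reported here. Symbols came from RefSeq (19703 genes matched), lengths and GC content from GENCODE 29 (95.8% of tested genes). Alternatives were a pseudocount of 0.1, median-ratio scaling, equal RPKM sums, other filters, 1.5-fold, and subtraction of a polynomial (degree 3) in length and GC content. Scalings were counted for the lists after seeing the data. Scripts were tested on simulated data. Python 3.11.15, NumPy 2.4.6, pandas 2.3.3, SciPy 1.17.1, Biopython 1.88 and Matplotlib 3.10.9 were used.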

Additional observations from a re-analysis of the deposited data

Results flagged for a closer look

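KLK3 was singled out because its log2 change with AIL differed by -1.39 between the 2 backgrounds. AIL went with -1.31 in the AR1-651 libraries, against 0.08 in those of the empty vector. The latter was within counting error of 0, and equal RPKM sums turned its sign (-0.01), so no reversal of sign is claimed. KLK2 had a larger difference (-1.81), with changes below 0 in both backgrounds (-2.10 and -0.29). With 1 library per condition these differences were not tested.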

How the results depend on the processing

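No paired analysis was possible because each condition has 1 library and no test was made. No value of KLK3, KLK2, KLK4 or KLK15 past 2-fold changed direction under any alternative run, and all calls of KLK2 stayed on their side of 2-fold. With equal RPKM sums, KLK3 with AR1-651 + AIL against empty vector (0.85) and KLK15 with AR1-651 (0.68) fell under 2-fold. With the trend in length and GC content removed, KLK4 with AR1-651 + AIL against empty vector was at -0.82, and 3 values passed 2-fold: KLK3 with AR1-651 + AIL against empty vector + AIL (1.09) and KLK15 with AR1-651 + AIL against empty vector + AIL (1.04) and against empty vector (1.02). A threshold of 1.5-fold added the same 3 at 0.94, 0.74 and 0.74. The difference of AIL changes moved for KLK3 to -1.60 (median-ratio scaling), -1.10 (equal RPKM sums) and -1.23 (trend removed), and for KLK4 to -0.0034 (equal RPKM sums). The cause was not tested beyond the shift that each scaling makes by construction.

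Over all genes, AR1-651 against empty vector had 586 higher and 1701 lower. Higher were 1073 with median-ratio scaling, 249 with equal RPKM sums and 1570 at 1.5-fold, and lower were 817, 3651 and 4720, with 3047 at a pseudocount of 0.1 and 530 with the trend removed. For AIL with empty vector (1394 and 1321), 1.5-fold gave 3064 and 3233, and a pseudocount of 0.1 gave 2139 lower. For AIL with AR1-651 (2184 and 839), 1.5-fold gave 4183 and 2145, the trend removed 1161 higher, a pseudocount of 0.1 1331 lower and median-ratio scaling 1264 lower. For AR1-651 with AIL in both (214 and 517), 1.5-fold gave 1130 and 2271, a pseudocount of 0.1 509 and 1160, RPKM of at least 5 112 higher, and the trend removed 190 lower. For AR1-651 + AIL against empty vector (1849 and 2304), 1.5-fold gave 3483 and 4265, and the trend removed 1459 lower. Depth limits KLK15 and the weak kallikreins, whose intervals are wide.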
